A study of Mus musculus with 18 samples.

Results

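Acyl-CoA thioesterases split fatty acyl-CoA esters into free fatty acids and coenzyme A, the reverse of what acyl-CoA synthetases do, and thereby set how much activated fatty acid is open to oxidation or lipid synthesis. The Acot family holds 2 unrelated kinds of enzyme. Type I enzymes share an alpha/beta-hydrolase fold and are encoded side by side in a gene cluster, while type II enzymes share the so-called hotdog fold and lie on several chromosomes. Members differ in where they sit in the cell (mitochondria, peroxisomes or cytosol) and in the acyl chains they prefer. In naive T cells, which are quiescent and largely live on oxidation in mitochondria, fatty acid breakdown is one source of energy.

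The members were Acot2, Acot4 and Acot6 (type I) and Acot7, Acot8, Acot9 and Acot13 (type II), 7 of the 9 Acot genes with a row among 15137 deposited genes. The family was selected on the measured stimulation responses of Acot4, which had opposite signs in the 2 genotypes, and its listed genes were then taken by name. Acot4 in cultured cells is therefore a description with no test, whereas the other 6 members were included by name and were tested. The remaining rows were Acot1, at log2 values of about 1.5 to 3.0 and below the level required for testing, and Acot11.

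Expression had been measured by RNA sequencing in naive CD4+ T cells sorted from mouse spleen as CD3+, CD4+, CD25-, CD62L+ and CD44-, all on the C57BL/6J background. In Creld1 cKO mice the membrane protein gene Creld1 was deleted with CD4-Cre, which acts in developing T cells before the CD4 and CD8 lineages part, so that other T cells of these mice lack it too. The genotype of the control mice is given only as control. For each genotype there were 3 libraries of freshly isolated cells, 3 after 8 h of culture without stimulation and 3 after 8 h with anti-CD3 and anti-CD28 antibodies at 1 µg/ml, 18 libraries in 6 groups. Neither age nor sex is given in the labels. All libraries of a group carry 1 mouse number, so whether they come from separate mice is not known. P-values reflect only how far libraries of a group lie apart, which may be technical.

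Values were deposited on a log2 scale, where a difference of 1 is a 2-fold difference in the deposited values. The processing notes give no roles to the tools they name, so the transform is not known. Genes of very low level stayed in narrow ranges of their own, such as Blk (-0.821 to -0.582) and Hbb-bs (0.427 to 0.988). For genes of low level, differences and linear values may therefore not match those of read counts. Testing used limma over 10877 genes that reached 10 on the linear scale in at least 3 libraries, with Benjamini-Hochberg adjustment over all of them and a threshold of 0.05. All 7 members exceeded that level in all 18 libraries. Depth per library is unknown, so no counting error could be given. In this bulk RNA, fewer cells of a type and less RNA per cell cannot be told apart.

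The label of naive CD4+ T cells matched the markers, as 8 of 8 deposited naive CD4 T cell markers reached the level for testing, with means of 11.5 (Cd3e) to 13.7 (Tcf7). Of other lists, 1 of 7 B cell markers, 2 of 8 CD8 T and NK markers, 2 of 5 myeloid markers, 5 of 5 regulatory T cell markers and 0 of 3 red cell and platelet markers reached it. Creld1 was lower in mean in cKO than in control cells in fresh cells (4.10 against 4.58), unstimulated culture (4.03 against 5.03) and stimulated culture (4.38 against 4.74), and none of these differences passed over all genes (limma adjusted p = 0.790, 0.103 and 0.974). Libraries also differed in how values ran with the GC content of transcripts. This slope, in log2 per standard deviation of GC content, was -0.19 to -0.07 in the unstimulated cKO libraries and 0.06 to 0.24 in the unstimulated control libraries. Among fresh cKO libraries replicate 3 stood apart, with a slope of 0.16 against -0.19 and -0.31 in the other two, and results that rest on it are also given without it.

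The type I members are neighbours on the plus strand of mouse chromosome 12 (GRCm38, GENCODE annotation). Acot2 lies at chr12:83987861-83993873, Acot4 at chr12:84038379-84048601 and Acot6 at chr12:84100654-84111349. The type II members lie apart, with Acot7 at chr4:152178134-152271855 (plus), Acot8 at chr2:164792765-164804882 (minus), Acot9 at chrX:155262443-155297654 (plus) and Acot13 at chr13:24817948-24831540 (minus). RefSeq promoter sequences, 250 bases before to 50 after the start, matched 5 of the 7 members. Those of the 3 members that the results below turn on are shown 5′ to 3′ in the gene's own direction (GRCm38.p6), Acot2 at chr12:83987611-83987910, Acot4 at chr12:84038129-84038428 and Acot8 at chr2:164804832-164805131. Capitals mark matches, on either strand, to the letters CCAAT, a box bound by the factor NF-Y, to TATAAA, the core of the TATA box, to CACGTG, the E-box that Myc and its partners bind, to AGGTCA, the single site of several nuclear receptors, and to GGGCGG, the GC box of Sp factors.
Acot2: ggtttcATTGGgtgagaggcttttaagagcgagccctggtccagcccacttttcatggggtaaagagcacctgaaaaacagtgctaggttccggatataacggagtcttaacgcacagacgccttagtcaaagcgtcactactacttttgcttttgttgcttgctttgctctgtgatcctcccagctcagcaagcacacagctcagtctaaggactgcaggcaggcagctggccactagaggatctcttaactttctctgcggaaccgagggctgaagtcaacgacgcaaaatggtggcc
Acot4: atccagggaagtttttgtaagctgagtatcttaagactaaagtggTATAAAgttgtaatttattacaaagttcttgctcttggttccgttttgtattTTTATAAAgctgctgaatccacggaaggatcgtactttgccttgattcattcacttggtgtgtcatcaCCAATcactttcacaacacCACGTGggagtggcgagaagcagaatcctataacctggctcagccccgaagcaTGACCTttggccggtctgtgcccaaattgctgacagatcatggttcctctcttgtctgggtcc
Acot8: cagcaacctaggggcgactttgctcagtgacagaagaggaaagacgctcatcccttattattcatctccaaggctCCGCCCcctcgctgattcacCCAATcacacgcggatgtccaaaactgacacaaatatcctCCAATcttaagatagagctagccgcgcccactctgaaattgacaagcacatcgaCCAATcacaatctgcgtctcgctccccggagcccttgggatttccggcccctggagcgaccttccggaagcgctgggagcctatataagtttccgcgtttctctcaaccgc
The Acot4 promoter held TATAAA at -205 and -151 and its overlapping reverse at -153, CCAAT at -85, CACGTG at -66 and the reverse of AGGTCA at -13, counted from the start of transcription. The Acot2 promoter, from the same cluster, held a single match, the reverse of CCAAT at -244. Acot8 had CCAAT at -155, -115 and -61 and the reverse of GGGCGG at -175. Over 32851 promoters of this length, the CCAAT box matched in 37.41%, the GC box in 35.66%, the single nuclear receptor site in 16.26%, the TATA box in 13.62% and the E-box in 7.15%. The direct repeat of AGGTCA with 1 base between the copies, to which PPAR and RXR bind, matched in 0.04% of all promoters and in 0 of the 5 member promoters. A match is a description of letters, not a binding site.

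Without strand and with reads of 75 bases, some reads of these genes cannot be assigned to a single gene. Of all 75-base windows of the Acot2 transcripts, 21.21% also occur in another gene, nearly all of these in Acot1 (20.45% of the windows). For Acot4 the share was 9.9%, and 615 of its exonic bases (9.21%) overlap 4732463B04Rik, an antisense gene on the opposite strand. Acot8 shared 8.44%, where its 3′ end overlaps Snx21 on the opposite strand, Acot9 shared 5.29%, all with the intronless copy Acot10, and Acot6 shared 1.86%. Acot7 and Acot13 shared none (0%).

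Per kilobase of exon, on the linear scale, the mitochondrial enzyme gene Acot9 and Acot13, whose product acts on medium and long chains, were the most abundant members, with medians over the libraries of 151 and 149. Next came Acot2 (47.3) and Acot8 (39.8), then Acot7 (11.1), then Acot6 (4.54) and Acot4 (4.18). Ranges over libraries overlapped within the pairs Acot9 with Acot13 (122 to 186 and 122 to 179), Acot2 with Acot8 (29.6 to 97.3 and 23.8 to 70.0) and Acot6 with Acot4 (3.04 to 5.89 and 2.97 to 6.79), but not between these pairs and Acot7 (7.64 to 16.8). Variation between conditions had another order. The range of the 6 group means in log2 was 1.35 for Acot2, 1.02 for Acot4, 0.88 for Acot8, 0.74 for Acot7, 0.30 for Acot13, 0.19 for Acot6 and 0.16 for Acot9, beside a median of 0.47 over all tested genes. Without fresh cKO replicate 3 the range was 0.34 for Acot9, 0.31 for Acot6 and 0.30 for Acot13, beside a median of 0.54, so the order among these 3 rests on that library. It was 1.06 for Acot8 and 0.80 for Acot7 without it, and did not move for Acot2 and Acot4.

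**Figure D1:**
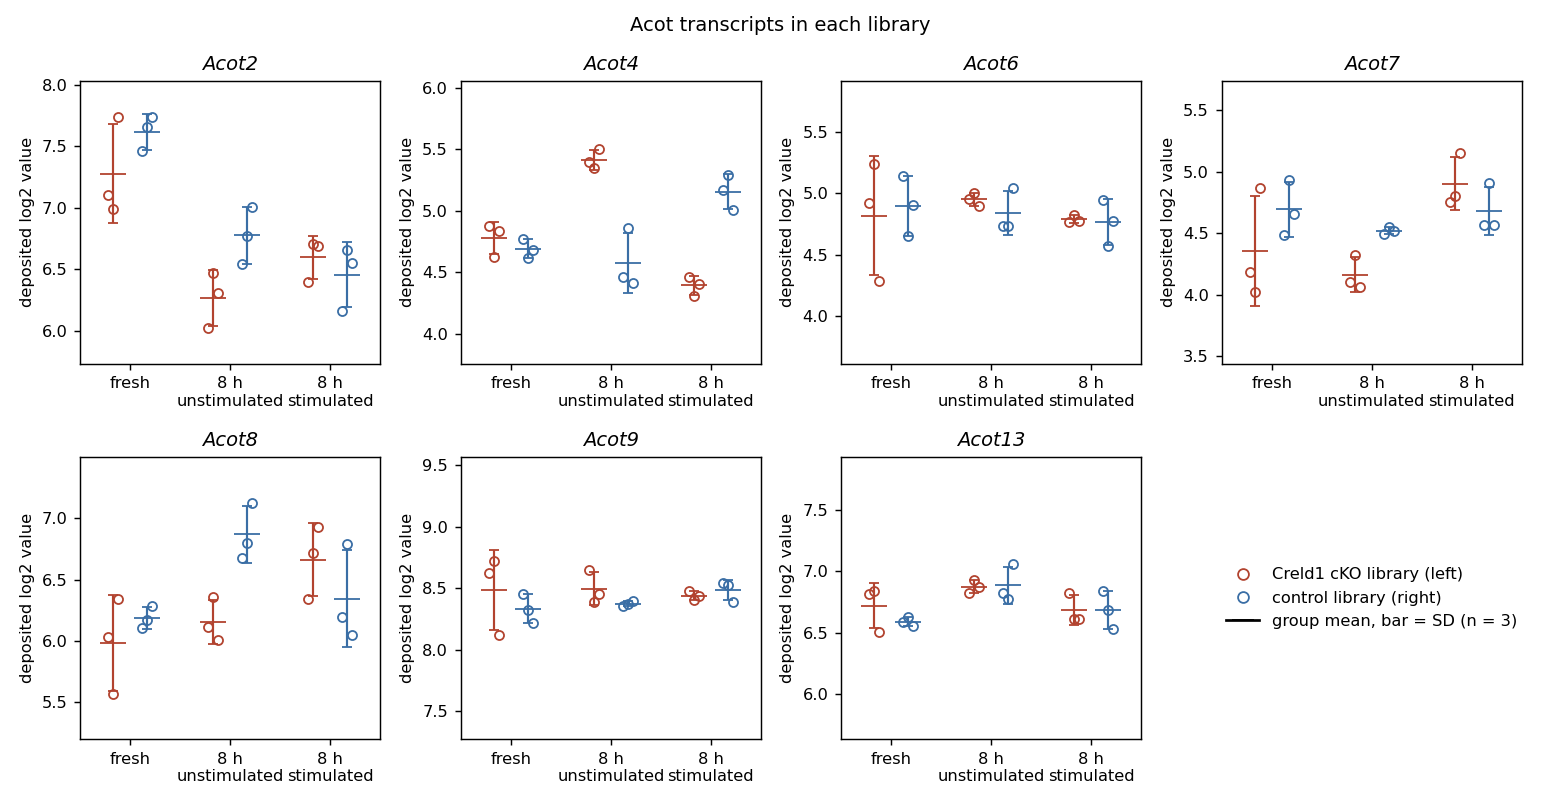
Deposited log2 value of each Acot transcript in each of 18 libraries (y axis, the same span in every panel) by condition (x axis), with Creld1 cKO libraries in red on the left and control libraries in blue on the right; the long mark is the group mean and the bar the SD of 3 libraries. Acot4 is high in unstimulated cKO and stimulated control cells, Acot2 is highest in fresh cells, and the group means of Acot13 span 0.30.

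Acot4 encodes a peroxisomal thioesterase of succinyl-CoA and longer dicarboxylic acyl-CoAs, products of the breakdown of dicarboxylic fatty acids. In fresh cells its log2 values were 4.87, 4.63 and 4.83 in cKO libraries and 4.77, 4.62 and 4.68 in control libraries, and the groups overlapped. After unstimulated culture they were 5.40, 5.34 and 5.50 in cKO libraries and 4.46, 4.86 and 4.41 in control libraries. After stimulated culture they were 4.46, 4.31 and 4.41 in cKO libraries and 5.17, 5.29 and 5.00 in control libraries. Every unstimulated cKO library was thus above every unstimulated control library, and every stimulated cKO library was below every stimulated control library. Genotype groups also did not overlap for 52.1% of all tested genes in unstimulated culture (23.5% with cKO higher). In stimulated culture they did not for 6.19% (3.14% with cKO lower). The stimulated minus unstimulated difference was -1.02 in cKO cells and 0.58 in control cells, the 2 values that chose the family. The cKO minus control difference was -0.76 with stimulation and 0.84 without. Summed B cell markers, on the linear scale, also differed between the unstimulated groups (35.8 to 40.6 in cKO and 42.1 to 52.9 in control libraries). Cd79a, the only gene of the sum at the level for testing and its largest part, differed by -0.60 there. Others were low, with Ms4a1 and Pax5 at means of 2.21 and -0.06 in log2. The part of these markers in the Acot4 values was not tested.

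The fresh cells place these levels. Against fresh cells, unstimulated culture gave Acot4 a difference in means of 0.64 in cKO cells and -0.11 in control cells. In means, stimulated cKO cells (4.39 ± 0.08) lay below fresh cKO cells (4.78 ± 0.13), and stimulated control cells (5.15 ± 0.14) above fresh control cells (4.69 ± 0.08) (SD, n = 3 each). The sole comparison of Acot4 that the choice did not use, cKO against control in fresh cells, gave 0.09 ± 0.13 (SE; limma adjusted p = 0.833).

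The 5 tested genes whose 6 centred group means lay nearest to those of Acot4, by root mean square difference in log2, were Zfp935 (0.146), Ica1l (0.147), Cpd (0.169), Chml (0.174) and Prlr (0.186), beside a median over all genes of 0.391. Each had its highest mean in unstimulated cKO or stimulated control cells, for example 3.72 in both for Zfp935. Zfp935 and Cpd lay near the level required for testing, with group means of 2.92 to 3.72 and 2.72 to 3.58. Cpd reached that level mainly through the groups where it was high. These 5 genes were found by likeness over 6 group means, and nothing was tested on them.

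**Figure D2:**
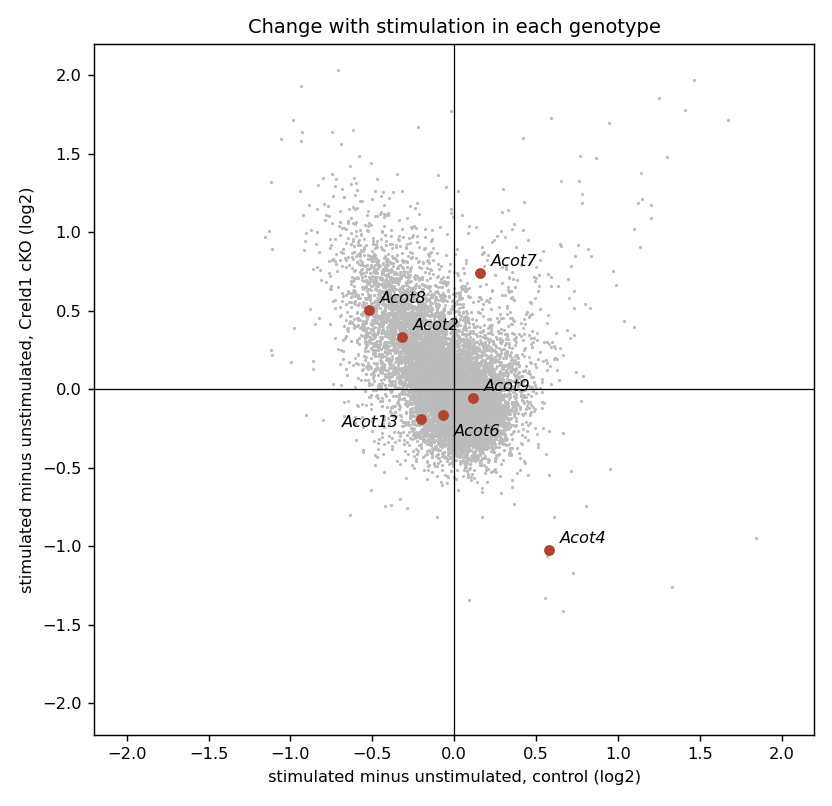
Difference in log2 value between stimulated and unstimulated culture for each tested gene (grey points), in Creld1 cKO cells (y axis) against control cells (x axis), with the 7 Acot transcripts in red; 4 genes lie outside the plotted range. Acot4 sits at the lower right, at -1.02 in cKO and 0.58 in control cells, away from Acot2 and Acot8 at the upper left.

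The other members were tested for the same stimulation response. None of the 6 passed in cKO cells, where 0.285% of all tested genes did, and none in control cells, where 0.349% did. Of 7 tested genes listed as a check of stimulation, 2 rose past the threshold in cKO cells and 3 in control cells. Egr1, 1 of these, rose by 1.86 and 1.25 (limma adjusted p = 0.000284 and 0.00803). At an unadjusted p under 0.05 there were 2 members in cKO cells (23.1% of all genes) and 1 in control cells (11.3%). Because Acot4 in these comparisons chose the family, nothing is read from those counts about the family. Acot7, the cytosolic thioesterase of long-chain acyl-CoAs such as arachidonoyl-CoA, had values of 4.75, 4.80 and 5.16 in stimulated cKO libraries and 4.10, 4.32 and 4.06 in unstimulated cKO libraries. These did not overlap, as those of Acot6 did not (2 of 6 members, beside 42.3% of all genes). The difference was 0.74 ± 0.19 (SE), and the limma adjusted p was 0.129. In control cells Acot7 had 4.57, 4.91 and 4.57 with and 4.50, 4.55 and 4.52 without stimulation, a difference of 0.16 ± 0.19 (limma adjusted p = 0.697). It was the 1 of 6 members whose groups did not overlap there, beside 20.5% of all genes.

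Acot8 encodes a peroxisomal thioesterase that accepts acyl-CoAs of many chain lengths and bile acid CoA esters. It had 6.34, 6.72 and 6.93 in stimulated and 6.11, 6.36 and 6.01 in unstimulated cKO libraries. In control cells it had 6.19, 6.79 and 6.05 in stimulated and 6.68, 6.80 and 7.13 in unstimulated libraries, and the groups overlapped in both genotypes. The differences were 0.50 ± 0.22 in cKO cells and -0.52 ± 0.22 in control cells (limma adjusted p = 0.205 and 0.386), opposite in sign to those of Acot4. For Acot2, a thioesterase of long-chain acyl-CoAs in the mitochondrial matrix, they were 0.33 ± 0.20 and -0.32 ± 0.20 (limma adjusted p = 0.280 and 0.500). Acot6, Acot9 and Acot13 differed by -0.19 to -0.05 in cKO cells and by -0.20 to 0.11 in control cells.

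The test of the difference between the 2 responses, cKO minus control, was passed by none of these 6 members and by 0.00919% of all genes. That share counts Acot4 among all genes, so it is not a background independent of the gene that chose the family. By limma its value was 1.03 ± 0.31 for Acot8 (adjusted p = 0.166), 0.65 ± 0.28 for Acot2 (0.168) and 0.58 ± 0.27 for Acot7 (0.178). It was 0.01 for Acot13, -0.09 for Acot6 and -0.17 for Acot9 (adjusted p = 0.974, 0.827 and 0.503), and it was -1.60 for Acot4, given without a test. At an unadjusted p under 0.05 there were 2 of the 6 members, beside 28% of all tested genes.

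These values moved with the GC content of the transcripts. Genes at or above the median GC content of 49.2% had a median difference between the responses of 0.37, positive in 83% of them, and genes below it a median of -0.22, positive in 19.5%. Acot7 (56.2% GC), Acot8 (53.9%) and Acot2 (53.7%) were the members furthest above 0, and Acot13 (49.9%) lay at 0.01. Acot6 (47.5%) and Acot9 (45.3%) lay below 0 with Acot4 (46.2%). With each library's GC slope as a covariate, the value became 0.02 for Acot7, 0.05 for Acot2, 0.42 for Acot8, 0.18 for Acot13, 0.14 for Acot9 and 0.39 for Acot6, with adjusted p of 0.999 for each. For Acot4, whose values chose the family, it was -1.61 with the covariate and -1.60 without, a description only. The 5 genes of like pattern had GC contents of 37% to 47%.

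**Figure D3:**
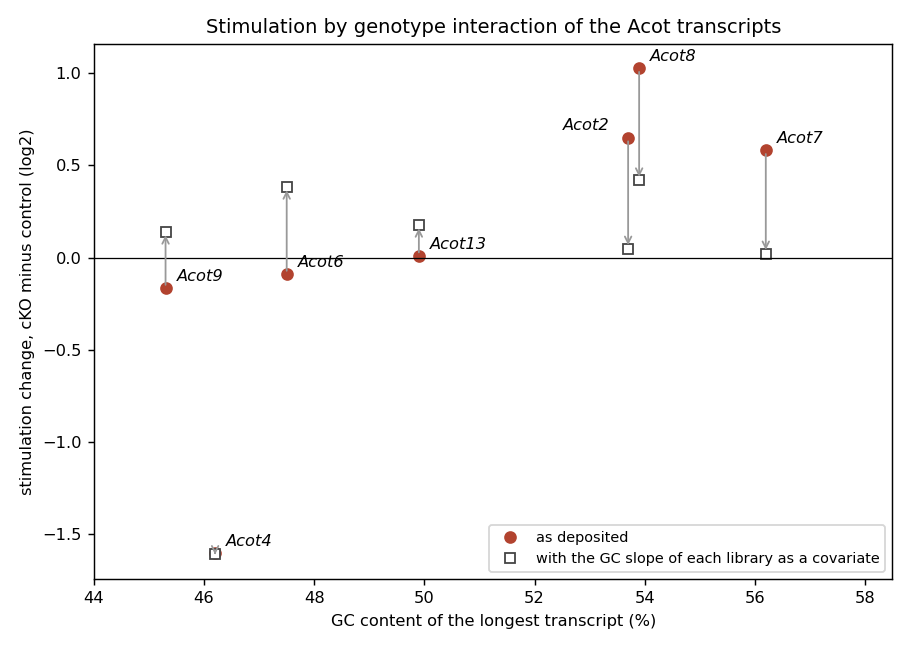
Difference between the stimulation responses of cKO and control cells in log2 (y axis) against the GC content of the longest transcript in % (x axis) for the 7 Acot transcripts, from the deposited values (red circles) and with each library's GC slope as a covariate (white squares), joined by arrows. Acot2, Acot7 and Acot8 move towards 0, while Acot4 stays at -1.60 and -1.61.

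Between genotypes, none of the members tested passed in any condition. In unstimulated culture, where 0% of genes passed and 33.2% had an unadjusted p under 0.05 (2 of 6 members), Acot8 had 6.11, 6.36 and 6.01 in cKO libraries against 6.68, 6.80 and 7.13 in control libraries, a difference of -0.71 ± 0.22 (limma adjusted p = 0.103). Acot2 was at 6.02, 6.47 and 6.30 in cKO libraries and 6.55, 6.77 and 7.01 in control libraries, a difference of -0.51 ± 0.20 (limma adjusted p = 0.107). Neither pair of groups overlapped, nor did those of Acot7 (-0.36 ± 0.19, limma adjusted p = 0.194), which made 3 of 6 tested members beside 52.1% of all genes. Both passed once fresh cKO replicate 3 was left out of the fit (limma adjusted p = 0.0238 for Acot8 and 0.0326 for Acot2, with 2837 genes passing in all), although their differences do not use that library. With the GC covariate the difference was -0.25 for Acot8 and -0.05 for Acot2. That of Acot4 was 0.85 with the covariate and 0.84 without.

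In stimulated culture, where 0% of all genes passed and 1.47% had an unadjusted p under 0.05 (0 of 6 members), the differences of the 6 tested members ran from -0.05 (Acot9) to 0.32 (Acot8). None of those 6 had groups that did not overlap, beside 6.19% of all genes. In fresh cells, where 0.00919% of all genes passed and 3.94% had an unadjusted p under 0.05 (0 of 7 members), differences ran from -0.34 (Acot2 and Acot7) to 0.16 (Acot9) over the 7 members, and 0 of 7 had groups apart, beside 4.31% of all genes. These fresh values depend on cKO replicate 3. In that library Acot2 was at 7.74 (against 7.10 and 6.99 in the other cKO libraries), Acot7 at 4.86 (4.18 and 4.02), Acot8 at 6.34 (6.04 and 5.57), Acot6 at 4.29 (4.92 and 5.24), Acot9 at 8.12 (8.62 and 8.72) and Acot13 at 6.51 (6.82 and 6.84). Without it, Acot7 fell by 0.59 and Acot9, a mitochondrial thioesterase, rose by 0.34 in fresh cKO cells (limma adjusted p = 0.0438 and 0.0409), as 1193 genes passed in all. Acot4 was at 4.83 in that library, between its other values.

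**Figure D4:**
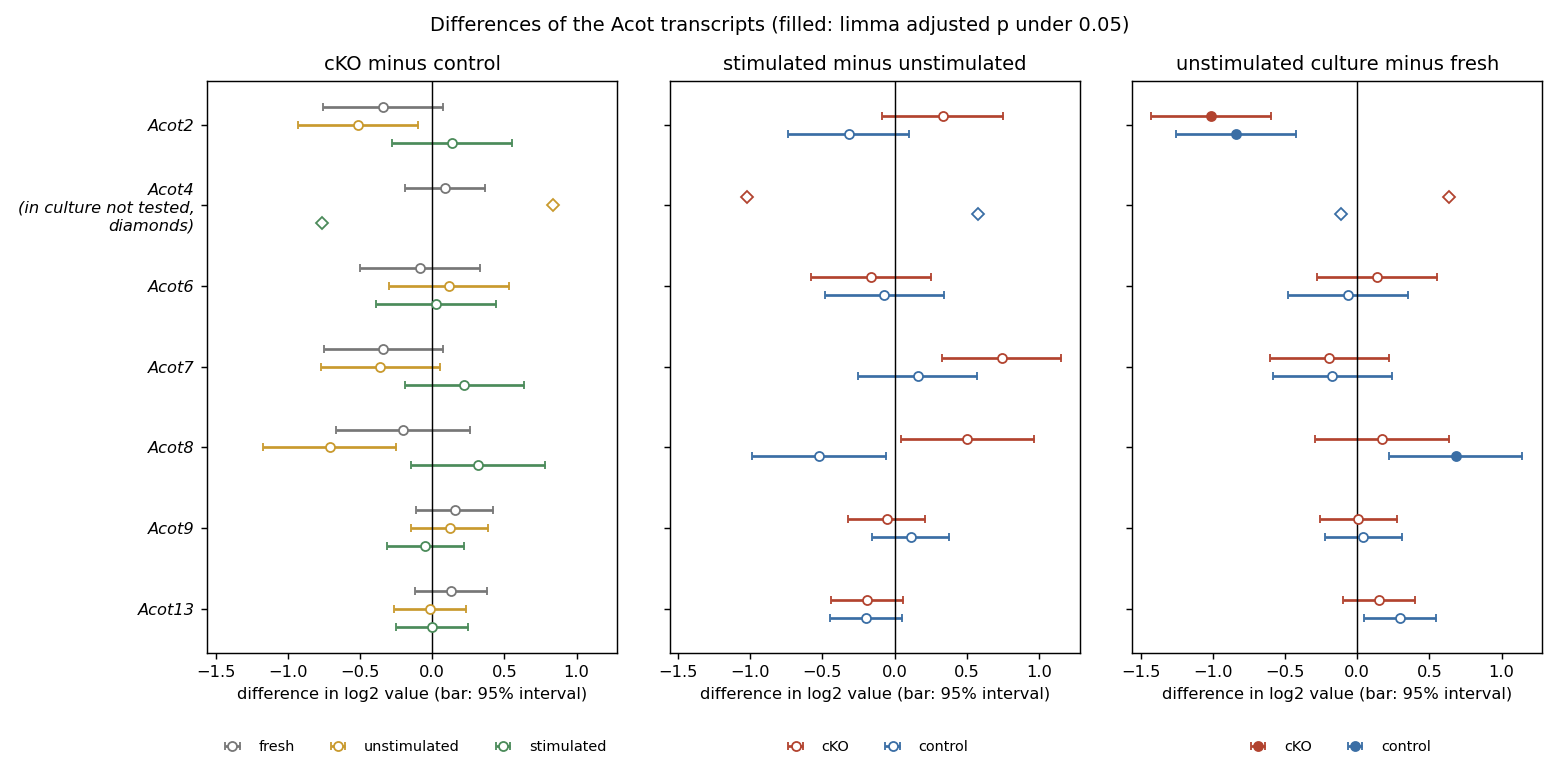
Difference in log2 value (x axis) for each Acot transcript (y axis), between cKO and control cells in 3 conditions (left), stimulated and unstimulated culture in each genotype (middle), and unstimulated culture and fresh cells in each genotype (right); bars are 95% intervals, diamonds without a bar are the untested values of Acot4 in culture, and filled points passed the limma adjusted threshold. Filled points are those of Acot2 in culture in both genotypes and of Acot8 in control culture.

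Culture without stimulation gave the calls among the members. Acot2 fell in both genotypes, where 22.1% (cKO) and 29% (control) of all tested genes passed, 11.4% and 14.1% as lower. Its values were 6.02, 6.47 and 6.30 in cultured and 7.10, 6.99 and 7.74 in fresh cKO libraries, a difference of -1.01 ± 0.20 (limma adjusted p = 0.00155), and 6.55, 6.77 and 7.01 in cultured and 7.46, 7.66 and 7.74 in fresh control libraries, a difference of -0.84 ± 0.20 (limma adjusted p = 0.00502). Every cultured library lay below every fresh library in each genotype. In cKO cells Acot2 was the 1 of 6 members with groups apart, beside 31.9% of all genes. The difference stayed past the threshold under all 29 alternatives in both genotypes, between -1.16 and -0.78 in cKO cells and between -1.10 and -0.73 in control cells. Reads from the stretches that Acot2 shares with Acot1 cannot be told apart.

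Markers of other cells moved in culture as well. The summed regulatory T cell markers (5 of 5 tested) were at 668 to 712 in cultured and 857 to 1016 in fresh cKO libraries, and at 699 to 816 in cultured and 939 to 1061 in fresh control libraries, on the linear scale. Of these, Ctla4 fell by 1.08 and 1.24 in cKO and control cells, while Foxp3, which defines these cells, differed by -0.22 and -0.18 (limma adjusted p = 0.315 and 0.359). Ikzf2 differed by -0.35 and -0.49 (limma adjusted p = 0.155 and 0.0400) and Il2ra by -0.12 and -0.19 (0.759 and 0.540). Tnfrsf18 went the other way, by 0.36 and 0.76 (limma adjusted p = 0.487 and 0.0901). The summed markers of CD8 T and NK cells (2 of 8 tested, Cd8a at a mean of 1.59 in log2) were at 129 to 167 in cultured and 177 to 274 in fresh cKO libraries, and at 159 to 190 in cultured and 192 to 274 in fresh control libraries. Of the 2 tested, Prf1, the perforin gene, fell by 1.09 and 0.90, while Cd8b1, a chain of the CD8 coreceptor, differed by -0.16 and -0.06 (limma adjusted p = 0.561 and 0.802). The tested myeloid markers moved in opposite directions. Itgam fell by 0.81 and 0.92 and Fcgr3 rose by 0.93 and 0.74 in cKO and control cells (limma adjusted p from 0.000449 to 0.00804). The part of all these markers in the fall of Acot2 was not tested.

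Acot8 rose in culture in control cells, as 14.9% of all tested genes did, to 6.68, 6.80 and 7.13 against 6.10, 6.17 and 6.28 in fresh control libraries (0.68 ± 0.22, limma adjusted p = 0.0283). In cKO cells it was at 6.11, 6.36 and 6.01 in culture and 6.04, 5.57 and 6.34 when fresh (0.17 ± 0.22, limma adjusted p = 0.634). The difference between these 2 responses was -0.51 ± 0.31 (limma adjusted p = 0.843), so the call in control cells alone is not shown to be a difference between genotypes. Leaving out control fresh replicate 1 or 2, or control unstimulated replicate 2 or 3, ended the call, with values from 0.55 to 0.72. Without fresh cKO replicate 3 the difference was 0.35 in cKO cells and the difference between the responses -0.33 (limma adjusted p = 0.249 and 0.998). In cultured control cells the B cell marker Cd79a rose as well, by 0.82 (limma adjusted p = 0.00563, and 0.33 in cKO cells at 0.260). The summed B cell markers were at 42.1 to 52.9 in cultured and 31.9 to 37.5 in fresh control libraries. That sum is not separate from Cd79a, the only tested gene in it and its largest part (mean of 4.29 in log2). The other genes of the sum had means of -0.75 (Blk) to 2.78 (Ebf1). The part of these markers in the rise of Acot8 was not tested. Snx21, a sorting nexin gene which overlaps the 3′ end of Acot8, was higher by 0.37 in cultured control cells (limma adjusted p = 0.0561) and rose by 0.58 in cultured cKO cells (0.00669).

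Of the 6 tested members, 1 passed in cKO cells and 2 passed in control cells, beside 22.1% and 29% of all tested genes, so the counts were near the background. Acot13 differed by 0.30 ± 0.12 in control cells (limma adjusted p = 0.0688), where its groups were apart like those of Acot2 and Acot8 (3 of 6 members, beside 48.6% of all genes), and by 0.15 ± 0.12 in cKO cells (0.398). Acot7 differed by -0.19 and -0.17, Acot6, whose product acts on branched-chain acyl-CoAs in peroxisomes, by 0.14 and -0.06, and Acot9 by 0.01 and 0.04, in cKO and control cells in that order. Without fresh cKO replicate 3 the values in cKO cells were 0.06 for Acot7, -0.13 for Acot6, -0.18 for Acot9 and 0.05 for Acot13, none past the threshold, and Acot13 then passed in control cells (limma adjusted p = 0.0373). None of the 6 passed the test of the culture response between genotypes, and 0% of all genes did (at an unadjusted p under 0.05, 0 of 6 members and 5.01% of all genes).

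Genes around the family were read from 8 lists. Of their 98 tested genes, 0 passed by limma between genotypes, with stimulation or in either test of a difference between responses, so the calls among them also came from culture. At an unadjusted p under 0.05 there were 34 between genotypes in unstimulated culture (33.2% of all genes), 24 and 14 with stimulation in cKO and control cells (23.1% and 11.3%), and 31 in the difference between those responses (28%), so the counts were near the background. Without fresh cKO replicate 3, 14 of 98 passed between genotypes in fresh cells (11% of all genes), 31 in unstimulated culture (26.1%) and 19 in the difference between stimulation responses (15.3%). With library weights 53, 57 and 60 passed in these 3 comparisons (50.7%, 56.3% and 54.3% of all genes), and 59 and 31 passed with stimulation in cKO and control cells (53% and 24.8%). With only the groups compared in the fit, 39 passed between genotypes in unstimulated culture (34.4%), 18 with stimulation in cKO cells (21.6%) and 28 in the difference between stimulation responses (21.8%). In culture the carnitine shuttle, which carries acyl groups into mitochondria, had the highest share of called genes among the lists. Of its 7 tested genes 4 rose in cKO cells (10.7% of all genes rose) and 4 in control cells (14.9%), with none lower and medians of 0.27 and 0.30 beside -0.02 and 0.04 over all genes. Cpt1a, the outer membrane carnitine palmitoyltransferase, rose by 0.27 and 0.24 in cKO and control cells, its inner membrane partner Cpt2 by 0.73 and 0.54, and carnitine acetyltransferase Crat by 0.79 and 0.71 (limma adjusted p from 0.00313 to 0.0361). The peroxisomal octanoyltransferase Crot rose by 0.37 in cKO cells (adjusted p = 0.0493) and the carrier Slc25a20 by 0.30 in control cells (0.0375). These counts were not stable. In cKO cells 2 rose without fresh cKO replicate 1 or unstimulated cKO replicate 1, and 0 with only the groups compared in the fit. The share of all genes called there, in either direction, fell too, from 22.1% to 17.4%, 16% and 7.46% in that order. In control cells 1 rose without fresh control replicate 1, without unstimulated control replicate 2 or 3, or with median centring. There 2 rose without unstimulated control replicate 1 or with quantile normalization. Over all genes 29% were called in control cells as fitted, and 19.3% to 27.3% under these settings. Median centring (26.3%) and quantile normalization (27.3%) lay nearest to 29%. Whether this list lost more calls than all genes did was not tested.

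Of 20 tested genes of peroxisomal fatty acid oxidation, 3 rose and 1 fell in cKO cells, and 5 rose and 1 fell in control cells. Hsd17b4, the multifunctional enzyme of the peroxisomal cycle, rose by 0.47 and 0.65 in cKO and control cells, and Pex5, the import receptor of peroxisomal proteins, by 0.93 in each. Nudt19, a peroxisomal coenzyme A hydrolase, fell by 0.52 and 0.45. Acox3, an acyl-CoA oxidase, rose by 0.53 and 0.87. Without fresh cKO replicate 3 the list had 6 higher and 2 lower genes in cKO cells and 8 higher in control cells. In that fit 30.6% (cKO) and 38% (control) of all genes were called in either direction. Of 22 tested genes of mitochondrial oxidation, 3 rose and 1 fell in each genotype. Acadm, the medium-chain dehydrogenase, rose by 0.55 in each and Acadsb, which acts on short branched chains, by 0.81 and 0.78.

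Acyl-CoA synthetases, which make the substrates of the thioesterases, had 1 of 14 higher and 3 lower in cKO cells. In control cells 2 were higher and 1 lower. Without fresh cKO replicate 3 these were 3 higher and 3 lower, with 38% of all genes called. Acsl5, a long-chain synthetase, fell by 0.74 in cKO and 0.86 in control cells (limma adjusted p = 0.00873 and 0.00287), while Acss1, the mitochondrial acetyl-CoA synthetase, rose by 0.28 and 0.33. Among 11 other thioesterases only Abhd10, which removes acyl groups from mitochondrial proteins, passed, and it fell by 0.51 and 0.49. Coasy, which completes coenzyme A, rose by 0.68 in control cells, as 1 of 14 genes of coenzyme A synthesis and breakdown. Without fresh cKO replicate 3, 4 of these genes rose, again with 38% of all genes called. Acbd3, 1 of 5 acyl-CoA binding proteins, fell by 0.30 in control cells, and Rxra, 1 of 7 tested PPAR factors and targets, rose by 0.92 in control cells. Beside 22.1% of all tested genes called in cKO cells and 29% in control cells, the synthetases in cKO cells (4 of 14) and peroxisomal oxidation in control cells (6 of 20) were near the share over all genes, and every other list but the carnitine shuttle was below it.

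**Figure D5:**
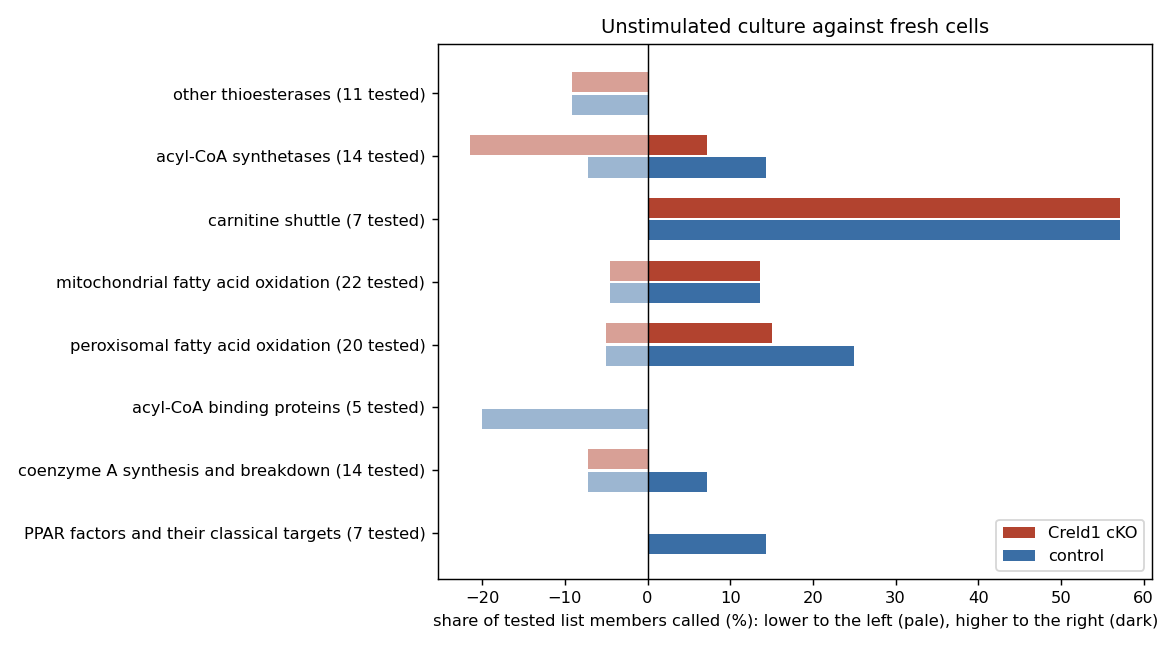
Share of the tested genes of each list (y axis) that passed the limma adjusted threshold between unstimulated culture and fresh cells, in % (x axis), lower genes to the left in pale bars and higher genes to the right in dark bars, for Creld1 cKO cells (red) and control cells (blue). The carnitine shuttle, with 4 of 7 genes higher in each genotype, has the longest bars.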

How the data were processed

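RNA-seq values of 18 libraries of naive CD4+ T cells, in 6 groups of 3 by genotype and condition, were taken as the authors deposited them, 1 normalized value on a log2 scale per gene and library, from -1.36 to 17.2. The log2 base was read from the values, whose linear sums ran from 6782465 to 7419367. Per the labels' protocols, libraries were made from 10 ng of RNA with TruSeq version 2, which marks no strand, and reads were single-end of 75 bases. CASAVA 1.8, HISAT2 2.1.0, SAMtools 1.4, Partek 6.6, DESeq2 and mm10 appear in the submitters' processing notes, which give them no roles. Whole reads could not be recovered, so count-based tests were not run and depth is unknown. Identical libraries numbered 0 pairs, and 0 columns were without a sample.

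Genes reaching 10 on the linear scale in 3 or more libraries (10877, 71.9%) were tested with limma 3.58.1 in R 4.3.3, as 1 model of 6 group means with trended empirical Bayes and 12 residual degrees of freedom (15.7 with the prior), 9 contrasts, two-sided tests, Benjamini-Hochberg adjustment and a threshold of 0.05. No pseudocount was added to the deposited log2 values. The steps were tested on simulated data.

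Members, gene lists and the rule for named genes were chosen with earlier results of these data known. One gene of the B cell marker list is not reported here and was left out of that list. Named were the 7 members, Creld1, up to 4 passing genes of smallest p per list and contrast, and the 5 genes nearest to Acot4 by root mean square difference of centred group means. Gene models and GC content (10803 tested genes) came from GENCODE on GRCm38, promoters from RefSeq. The GC slope is that of a library's deviations from each gene's mean on standardised GC content of the longest transcript. Alternatives were no filter, a minimum of 50, adding 5, median centring, quantile normalization, only the groups compared, no variance trend, library weights, a replicate block, the GC slope, both together, and each library left out in turn.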

Additional observations from a re-analysis of the deposited data

Results flagged for a closer look

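Acot4 was singled out because its stimulation response had opposite signs in all pairs of libraries, every stimulated cKO library being below every unstimulated cKO library and every stimulated control library above every unstimulated control library. Taken singly, 18.4% of all tested genes had such non-overlapping groups in cKO cells, lower with stimulation. In control cells 10.2% did, higher with stimulation. The share of genes with both was not counted, so how rare the pattern is was not measured. Of genes below the median GC content, where Acot4 lies, 19.5% had a positive difference between the responses. The difference between the responses, cKO minus control, was -1.6 in log2. It was not tested, because this response chose the family.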

How the results depend on the processing

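Under 29 alternatives no called member value changed sign (0 of them), and Acot2 passed in culture in both genotypes throughout. Acot4, which the minimum of 50 leaves out, kept its sign under the other 28 in both stimulation comparisons, with a difference between the responses of -1.76 to -1.35. These refits reuse the values that chose the family, so they are a description and give no separate support. The number of members passing, of 7 tested in fresh cells and 6 elsewhere, moved as follows, with the share of all tested genes in brackets. In cKO against control, fresh, it was 4 with library weights (50.7%). In cKO against control, unstimulated culture, it was 2 with only the groups compared (34.4%), 4 with library weights (56.3%) and 1 with the replicate block (8.15%). In stimulated against unstimulated culture it was 1 in cKO cells with only the groups compared (21.6%) and 4 with library weights (53%). In control cells it was 1 with library weights (24.8%). In the stimulation by genotype interaction it was 1 with only the groups compared (21.8%) and 3 with library weights (54.3%). In cultured against fresh control cells it was 4 with the GC slope as a covariate (42.9%). Leaving out single libraries gave 0 to 2 members between genotypes in fresh cells (up to 11%) and in unstimulated culture (up to 26.1%). It gave 0 to 1 for stimulation in cKO cells (up to 3.09%) and for its interaction (up to 15.3%), and 1 to 2 for culture in control cells (19.3% to 38%). Over all genes the count for cKO against control in unstimulated culture was 0 as fitted, 3737 with only the groups compared, 6125 with library weights, 887 with the replicate block and 0 to 2837 with single libraries left out. The cause was not tested.

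Whether runs of library numbers pair the samples was not settled, as the labels name no batch. The correlation of deviations was -0.683 at the lowest and 0.134 in the median within runs. Between runs its median was -0.067, and 11 of 18 libraries were nearest to their own run. The block was therefore kept as an alternative only. The 1 member that passed between genotypes with the block was Acot2 (adjusted p = 0.0491), and with the block and the GC covariate together the call of Acot8 in control culture ended (0.38). Median centring moved the median of all genes by -0.157 in the stimulation by genotype interaction and by 0.125 between genotypes in unstimulated culture. Acot13 then gave -0.15 in that interaction, and with quantile normalization -0.22, with 0.16 between genotypes in unstimulated culture. Acot4 gave 0.0888 for culture in control cells with library weights. Further values changed sign without passing with the GC covariate. Between genotypes in unstimulated culture Acot6 gave -0.25, Acot7 0.068 and Acot9 -0.11, and with stimulation in cKO cells Acot2 gave -0.0274, Acot6 0.12 and Acot9 0.13. In the stimulation interaction Acot6 gave 0.39 and Acot9 0.14, and in the culture interaction Acot2 gave 0.10 and Acot7 0.24. With the block and the covariate together, Acot6 gave -0.34, Acot7 0.11 and Acot9 -0.0903 between genotypes in unstimulated culture, Acot6 0.20 and Acot9 0.11 with stimulation in cKO cells, Acot6 0.19 with culture in control cells, Acot6 0.51, Acot7 -0.0391 and Acot9 0.11 in the stimulation interaction, and Acot6 -0.0761 and Acot7 0.26 in the culture interaction. Leaving out single libraries gave -0.30 to 0.18 for Acot6 between genotypes in fresh cells. For culture in cKO cells it gave -0.13 to 0.35 for Acot6, -0.36 to 0.0616 for Acot7 and -0.18 to 0.12 for Acot9, and for the culture interaction -0.065 to 0.41 for Acot6 and -0.19 to 0.23 for Acot7, the end opposite in sign to the main value being that without fresh cKO replicate 3. Another 55 uncalled values changed sign by less than the spread between replicates. With only the groups compared, 3 of 98 list genes passed with culture in cKO cells and 811 of all genes, against 17 and 2408 as fitted. Of 37 calls of list genes under 29 alternatives, 1073 values in all, 122 no longer passed and 0 changed sign.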
